A study of Caenorhabditis elegans with 2 samples.

Results

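Binding of the zinc finger protein ZTF-11 was examined at 10 chaperone and chaperonin genes of Caenorhabditis elegans, out of 19973 protein-coding genes on the nuclear chromosomes. They are hsp-1, hsp-60, hsp-90 and the 7 chaperonin subunit genes cct-1, cct-2, cct-4, cct-5, cct-6, cct-7 and cct-8. The genes were chosen by their signal in the pooled and consensus region lists of this same experiment, so their signals and ranks are given as a description, with no test. A region was taken as lying at a gene when its summit, the position of highest signal, fell between 1000 bp upstream and 500 bp downstream of any annotated transcript start, which is called the start window here.

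The chromatin immunoprecipitation and sequencing (ChIP-seq) data came from whole larvae of the first larval stage (L1), both sexes together, in 2 biological replicates of 1 group with no comparison group. The larvae carried the unc-119(ed3) III allele and the transgene wgIs236 (strain OP236), which makes ZTF-11 with GFP-FLAG at its C-terminus. Signal therefore reports a tagged transgene product averaged over all cells of the larva, and the sources used here do not say which strain the control library came from. The authors deposited 30000 regions from the reads of both replicates together (the pooled list), 29977 and 30000 nuclear regions for replicates 1 and 2, and 88 regions that passed their test of reproducibility between replicates (the consensus). All lists but the consensus hold background regions by design. Median signal was 16.05 in the pooled list, 48.61 in the consensus, 9.888 in replicate 1 and 9.177 in replicate 2, and no scaling between lists was stated.

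Chaperones bind unfolded or partly folded proteins and, in cycles driven by ATP, let them reach their native form. HSP-1 is the constitutive cytosolic HSP70, HSP-90 (also known as DAF-21) is the cytosolic HSP90, HSP-60 is the chaperonin of the mitochondrial matrix, and the CCT proteins form the ring-shaped cytosolic chaperonin that folds actin and tubulin. ZTF-11 is the worm member of the Myt1 family of zinc finger proteins, known for its part in making neurons, and Myt1 proteins bind the word AAGTT. Many chaperone genes are controlled by heat shock factor, which binds inverted repeats of GAA.

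The sequence around the pooled summit is shown for the 5 members whose region was among the 1000 highest of the pooled list, because the positions of short words in it are described further on. Each run holds 200 bases of ce11 (RefSeq WBcel235), read 5′ to 3′ in the direction of the chaperone gene, with the summit at base 101. Capitals mark AAGTT, the heat shock pairs GAANNTTC and TTCNNGAA, the heat shock triple (a pair followed by a further inverted unit, GAA or TTC, at the same spacing), and CCAAT (the word bound by NF-Y), each on either strand.
hsp-60, chrIII:1619043-1619242, strand +: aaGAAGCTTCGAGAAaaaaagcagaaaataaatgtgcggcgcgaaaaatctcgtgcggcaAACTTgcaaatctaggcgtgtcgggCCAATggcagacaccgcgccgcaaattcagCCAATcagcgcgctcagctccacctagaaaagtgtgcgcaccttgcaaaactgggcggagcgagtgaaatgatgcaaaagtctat
hsp-1, chrIV:17278484-17278683, strand +: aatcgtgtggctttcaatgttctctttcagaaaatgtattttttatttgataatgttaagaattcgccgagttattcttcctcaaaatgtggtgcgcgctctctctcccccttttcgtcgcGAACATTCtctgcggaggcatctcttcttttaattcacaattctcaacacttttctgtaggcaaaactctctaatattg
hsp-90, chrV:14685672-14685871, strand +: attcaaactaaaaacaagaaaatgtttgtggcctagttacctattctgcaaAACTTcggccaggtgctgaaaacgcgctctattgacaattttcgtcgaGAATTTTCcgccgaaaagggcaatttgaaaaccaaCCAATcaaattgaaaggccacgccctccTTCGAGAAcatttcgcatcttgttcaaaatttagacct
cct-1, chrII:8185128-8185327, strand +: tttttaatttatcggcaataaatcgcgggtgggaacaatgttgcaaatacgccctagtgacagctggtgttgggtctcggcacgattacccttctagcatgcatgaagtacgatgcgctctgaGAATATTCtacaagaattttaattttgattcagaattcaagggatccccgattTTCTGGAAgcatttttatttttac
cct-8, chrIV:1094283-1094482, strand -: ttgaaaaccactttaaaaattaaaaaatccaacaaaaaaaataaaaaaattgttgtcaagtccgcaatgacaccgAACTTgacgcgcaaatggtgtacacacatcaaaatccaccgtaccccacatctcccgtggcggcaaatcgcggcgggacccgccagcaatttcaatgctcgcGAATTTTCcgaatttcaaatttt

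The list of 10 genes divided into 4 with consensus regions, 1 with high pooled signal outside the consensus, 3 with lower pooled signal, and 2 with no pooled region in the start window. The consensus held regions at hsp-60, hsp-1, hsp-90 and cct-1, that is at 4 of 10 members against 0.411% of all protein-coding genes. Adding cct-8 gave 5 of 10 members with a region among the 1000 highest of the pooled list, against 2.90% of genes. Any pooled region was found at 8 of 10 members, against 45.2% of genes. These counts follow from the choice of the genes, and nothing is read from their distance to the background. The lowest consensus region of the whole list had a signal of 40.48 at rank 88, and the highest pooled region outside it 40.29 at rank 89. Among the members, cct-1 was the lowest inside with 45.59 at rank 57, and cct-8 the highest outside with 30.34 at rank 493.

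The hsp-60 region (WBGene00002025) had the highest pooled signal of the whole list. It lay at chrIII:1618968-1619317 of ce11, an intergenic region with its summit 599 bp upstream of the hsp-60 start. The signal was 127 at rank 1 in the pooled list, 55.96 at rank 3 in replicate 1 and 64.11 at rank 1 in replicate 2. Both replicates were far above their list medians, by 5.66 and 6.99 times, with summits 5 and 17 bp from the pooled one. A weaker pooled region lay in an intron of hsp-60, upstream of a further annotated start, with a signal of 20.09 at rank 6142.

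The hsp-1 region (WBGene00002005) lay at chrIV:17278409-17278758, 375 bp upstream of the start. Its signal was 51.32 at rank 36 in the pooled list, 30.05 at rank 31 in replicate 1 and 18.9 at rank 322 in replicate 2. The replicate summits lay 11 and 0 bp from the pooled summit. The signal was above the list median in both replicates, 3.04 times in replicate 1 and 2.06 times in replicate 2.

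The hsp-90 region (WBGene00000915) lay at chrV:14685597-14685946, and its summit was 388 bp upstream of the nearer of 2 annotated starts. The other start, at position 14684918, lies farther upstream, so the summit falls in an intron of the longer hsp-90 transcript. Its signal was 49.22 at rank 42 in the pooled list, 27.71 at rank 45 in replicate 1 and 17.48 at rank 618 in replicate 2. As at hsp-1, the rank was better in replicate 1, and the replicate summits coincided with the pooled one to within 2 bp.

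Among the CCT genes, cct-1 (WBGene00000377) had the highest region, at chrII:8185053-8185402, 215 bp upstream of its start. The signal was 45.59 at rank 57 in the pooled list, 18.14 at rank 812 in replicate 1 and 28.64 at rank 38 in replicate 2. The replicate summits lay 45 bp to either side of the pooled one. The cct-8 region (WBGene00021934), at chrIV:1094207-1094556 and 462 bp upstream of the nearest start, had a pooled signal of 30.34 at rank 493. In replicate 2 it had a signal of 25.06 at rank 66 with a summit 3 bp away. In replicate 1 the nearest summit was 196 bp away, with a signal of 7.963 at rank 25979, below the list median. The pooled rank of cct-8 therefore rested mainly on replicate 2. A further region in a cct-8 intron had a pooled signal of 21.13 at rank 4797, with 13.86 in replicate 1 and 7.494 in replicate 2.

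The other CCT genes had lower signal. The cct-2 region (WBGene00000378, chrII:8927208-8927557, 358 bp upstream) had a signal of 23.22 at rank 2888 in the pooled list, 8.544 at rank 22200 in replicate 1 and 16.36 at rank 966 in replicate 2. The cct-4 region (WBGene00000379, chrII:8283570-8283919) lay in a coding exon 77 bp downstream of the start, with a pooled signal of 16.02 at rank 15074. It had no summit within 200 bp in the replicate 1 list and a signal of 17.92 at rank 499 in replicate 2. The replicate 2 signal of cct-4 was higher than its pooled signal. The cct-5 region (WBGene00000380, chrIII:4508301-4508650, 362 bp upstream) had a pooled signal of 14.14 at rank 21682, no match in replicate 1 and 9.322 at rank 14320 in replicate 2. Its pooled signal was below the list median and its replicate 2 signal 1.02 times the median, the level of an ordinary background region.

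No region lay in the start window of cct-6 (WBGene00000381) in any list. The nearest summits were 808 bp from a start in the pooled list, 770 bp in replicate 1 and 2383 bp in replicate 2. At cct-7 (WBGene00020391) the pooled list had none nearer than 1579 bp. Replicate 1 held a cct-7 region 498 bp upstream with a signal of 9.608 at rank 16331, and replicate 2 one 902 bp upstream with 11.66 at rank 6205. These lay in exons of T10B5.4 and did not coincide. The remaining CCT subunit gene, cct-3, which is no member, had a region in the replicate 1 list only, with a signal of 9.399 at rank 17401. In the pooled list the 8 CCT genes thus ranged from rank 57 to no region at all.

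**Figure D1:**
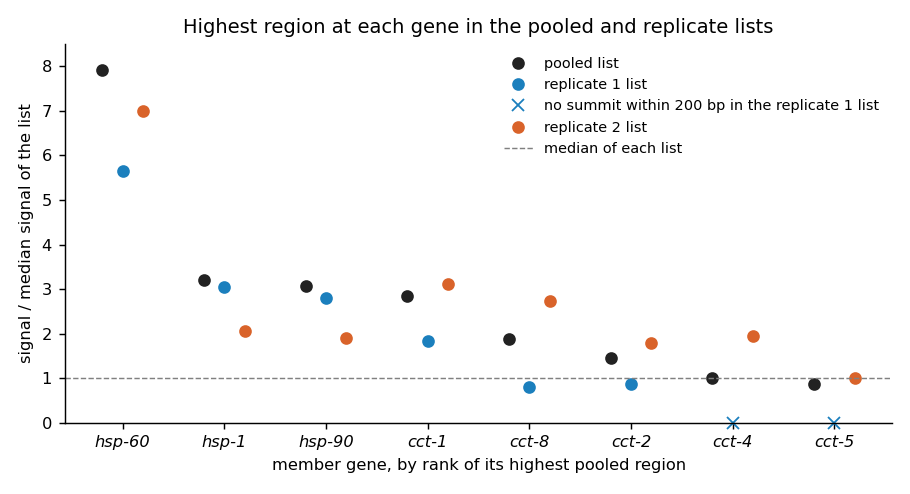
Signal at the highest pooled region of each member, divided by the median signal of the list it comes from, for the pooled list and the matched region in each replicate list (summits within 200 bp). The hsp-60 region stands at 5.66 to 7.91 times the median in all lists, while cct-8 and cct-2 are above the median in replicate 2 and below it in replicate 1, and crosses mark cct-4 and cct-5, which have no match in replicate 1.

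The 3 CCT genes matched in both replicates ranked higher in replicate 2, and hsp-1 and hsp-90 ranked higher in replicate 1. A start-window region was present at 7 of 10 members in the replicate 1 list, against 44.8% of genes, and at 9 of 10 in the replicate 2 list, against 45.7%. Among the 1000 highest regions there were 4 members in replicate 1 (2.48% of genes), namely hsp-1, hsp-60, hsp-90 and cct-1. In replicate 2 there were 7 (2.73% of genes), which added cct-2, cct-4 and cct-8. The highest pooled region had a match in both replicates at 6 of 10 members, against 13.5% of all genes, with or without a pooled region. Among the 464 start-window regions of the 1000 highest, 86% had both matches. All of the 6 members but cct-2 had their region in that set, so the count is no result about the members. The sixth member with both matches, hsp-60, ranked higher in replicate 2, as did hsp-110, which is no member. Across the 399 regions among the 1000 highest that lay in a start window and had both matches, 50.6% ranked higher in replicate 2. The share was 51.6% of all 2710 start-window regions with both matches, and 57.9% of the 57 in the consensus. The pooled signal was between 0.919 and 1.09 times the sum of both replicate signals at these 6 members, beside a median of 0.999 over all 2710 start-window regions with both matches, although no scaling was stated. At cct-4 the pooled signal fell short of that of replicate 2 alone. A region strong in replicate 2 alone held a high pooled rank at cct-8 (rank 66 in replicate 2, 493 pooled). It did not at cct-4 (rank 499 in replicate 2, 15074 pooled). With 1 library on each side, the difference between the CCT genes and hsp-1 or hsp-90 has no replicate check, and the part of depth or other library properties in it was not tested.

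**Figure D2:**
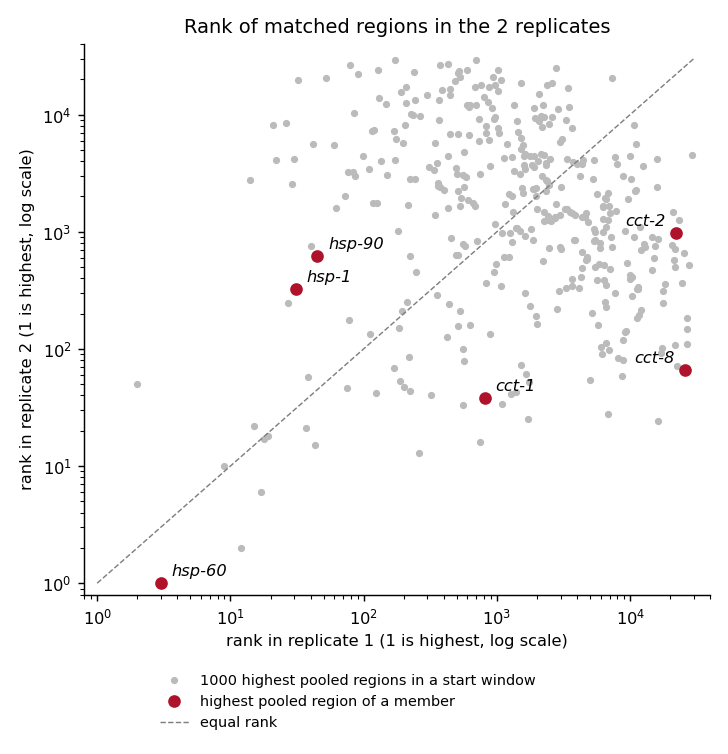
Rank of each matched region in replicate 1 (x axis) and replicate 2 (y axis), both on log scales with 1 the highest. Grey points are the 399 start-window regions among the 1000 highest pooled regions that have a match in both replicates, red points the 6 members with both matches, and the dashed line marks equal rank: hsp-1 and hsp-90 lie above it, and hsp-60 and the 3 CCT genes below it.

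Most of these summits lay between 2 starts that point away from each other. At cct-4, which the next count includes, the summit was instead in a coding exon, 77 bp downstream of the cct-4 start. The highest region was also in the start window of a protein-coding gene on the opposite strand at 7 of the 8 members that had a pooled region. The share was 21.7% of the 9018 protein-coding genes with a pooled region, and 35.2% of the 579 with one among the 1000 highest. The summit was nearer to the neighbour's start than to the member's at hsp-60, hsp-90, cct-1 and cct-8. That was 4 of 8, against 13.2% of the 9018 genes and 21.8% of the 579. Which gene, if either, such a region acts on cannot be told apart with these data.

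The neighbours had varied roles. The neighbour of hsp-60 is Y22D7AL.10, which RefSeq names as the mitochondrial 10 kDa heat shock protein, the co-chaperonin that caps HSP-60. The summit lay 214 bp upstream of Y22D7AL.10, and the starts of both genes were 813 bp apart, so the highest region of the list sat between the genes of both parts of the mitochondrial chaperonin. At hsp-90 the neighbour was C47E8.4, a FAM50 homolog, with its start 287 bp from the summit. At cct-1 it was mig-5, a dishevelled homolog of Wnt signalling, 205 bp from the summit and so nearly as far as cct-1 itself. At cct-8 it was Y55F3AR.2, a thioredoxin domain protein, 159 bp away. The cct-8 summit also lay 295 bp downstream of the start of a noncoding RNA gene on the opposite strand, Y55F3AR.4. The summits at cct-2, cct-4 and cct-5 lay 832, 537 and 379 bp from the starts of B0457.2, nst-1 and F25F2.1, each farther than from the member. Only hsp-1 had no protein-coding neighbour in the window, and a noncoding RNA gene on its own strand, F26D10.23, began 171 bp upstream of the summit.

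**Figure D3:**
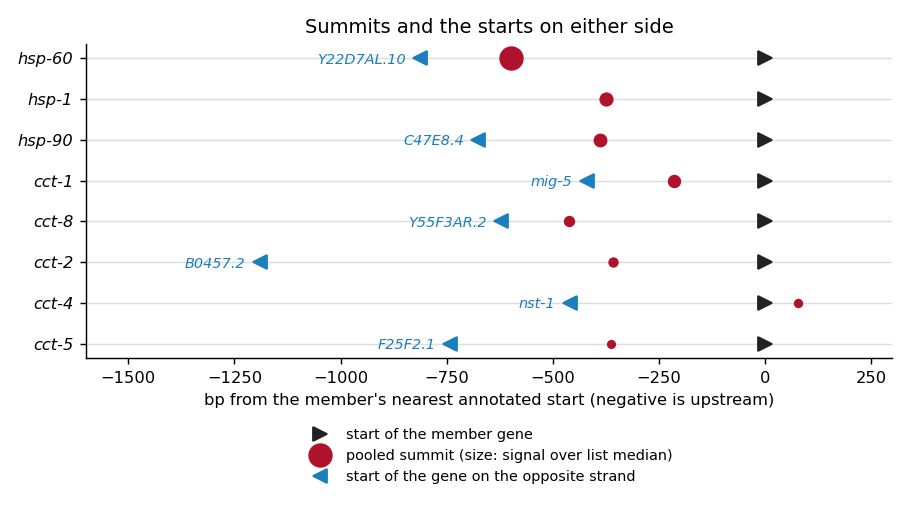
Position of the highest pooled summit of each member (red, larger for higher signal over the list median), in bp from the member's nearest annotated start (black, at 0), with the start of the protein-coding gene on the opposite strand (blue). The summits of hsp-60, hsp-90, cct-1 and cct-8 lie nearer to the blue start than to the black one.

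The summit was upstream of the start at 7 of the 8 members, against 66.5% of all 10451 pooled start-window regions and 80.2% of the 464 among the 1000 highest. The median distance was 368.5 bp from the member's own start, against 328 and 256 bp from the nearest protein-coding start. These measures are unlike, as are those behind the share upstream, so no difference is read from them. At hsp-60, hsp-90, cct-1 and cct-8 the neighbour's start was nearer to the summit, at 214, 287, 205 and 159 bp. GC content over the 350 bp of the region ran from 33% at cct-1 to 42.5% at cct-4. The median was 33.3% over all start-window regions and 34.2% over those among the 1000 highest. With hsp-60 at 41.9%, hsp-90 at 37.9% and hsp-1 at 37%, the members other than cct-1 were all richer in GC than both medians. The spread of GC content over the start-window regions was not examined.

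The sequences were searched for short words on both strands within 50 bp of the summit, a feature that the choice of genes did not use. Positions are those of the first base of the word. AAGTT was present at 4 of 8 members, hsp-60, hsp-90, cct-5 and cct-8, beside 37.7% of all start-window regions and 30.6% of those among the 1000 highest. At hsp-1 and cct-1, both with consensus regions, no AAGTT lay within 50 bp, and cct-1 had none in the whole region. Beside these shares, 4 of 8 is not a result about the members.

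A heat shock pair (GAANNTTC or TTCNNGAA) lay within 50 bp of the summit at 3 of 8 members, hsp-90 at 1 bp upstream of the summit, hsp-1 at 21 bp downstream and cct-1 at 23 bp downstream. It did so in 14.1% of all start-window regions and 14.2% of those among the 1000 highest. Within 100 bp the count was 7 of 8, all but cct-4, beside 26.1% and 28.4%. The window sets the count, since within 25 bp it was 1 of 8. Among the members a triple was found only at hsp-60, 98 bp upstream of the summit, where it overlaps 2 pairs. A triple on either strand lay within 100 bp of 1.64% of all start-window regions. CCAAT, searched after the sequences had been seen, lay within 50 bp at hsp-60, at 15 bp on either side of the summit, and at hsp-90, 34 bp downstream. That made 2 of 8 members, beside 19.2% of all start-window regions. A word match is no evidence that a protein binds there.

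**Figure D4:**
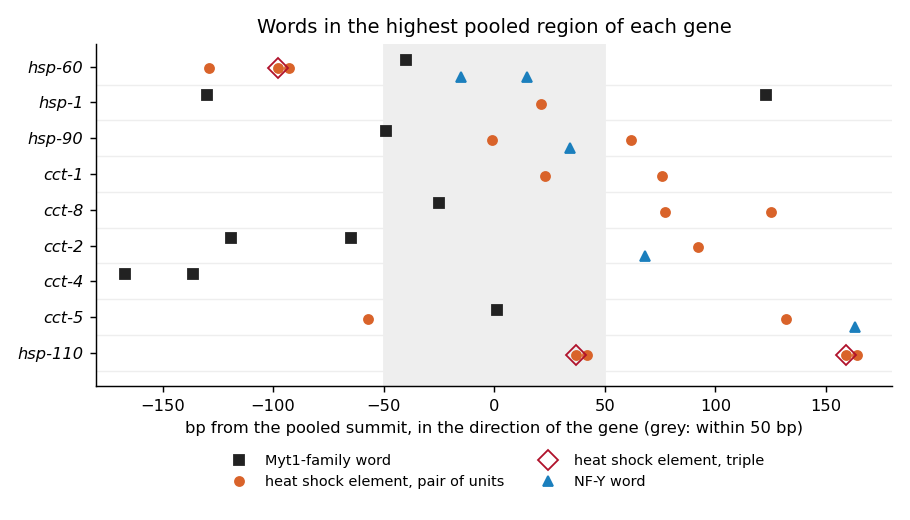
Positions of 4 short words in the highest pooled region of each member, and of hsp-110 for comparison, in bp from the pooled summit in the direction of the gene. The grey band covers 50 bp on either side, within which pairs of heat shock units lie at hsp-1, hsp-90 and cct-1 and the Myt1-family word at hsp-60, hsp-90, cct-8 and cct-5.

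Other chaperone genes were set beside the members by family. Of 66 further chaperone and co-chaperone genes, 33 had a pooled region (45.2% of all genes did) and 7 had one among the 1000 highest (2.90% of all genes), and 1, Y22D7AL.10, shared the hsp-60 consensus region. Their median signal at the highest pooled region was 19.75, against 17.01 over all 9018 genes with a region. The same counts were 59, 16 and 7 for 81 cytosolic ribosomal protein genes, 16, 1 and 0 for 33 proteasome genes, and 10, 2 and 1 for 16 tubulin genes. Among these comparison groups, consensus regions were thus found at ribosomal protein and tubulin genes as well.

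The other 6 genes among the 1000 highest were 4 J proteins, bag-1 and pfd-1. The J proteins are dnj-13, dnj-12, dnj-19 and dnj-9, which deliver substrates to HSP70 and stimulate its ATPase. BAG-1 is a nucleotide exchange factor of HSP70, and PFD-1 is a subunit of prefoldin, which hands actin and tubulin chains to CCT. The highest of them, dnj-13, had a pooled signal of 39.72 at rank 96, just outside the consensus, with 18.59 in replicate 1 and 15.01 in replicate 2 at summits matched within 200 bp. The values of dnj-12 were 38.88 at rank 111, 24.52 and 12.54, and those of bag-1 36.61 at rank 145, 23.48 and 12.77. All values of these 3 genes were above the list medians in both replicates. The others had pooled signals of 34.3 (dnj-19), 31.99 (dnj-9) and 27.67 (pfd-1). Of 29 J protein genes, 16 had a pooled region and 4 were among the 1000 highest, beside 45.2% and 2.90% of all genes. No result about the family is read from these counts.

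The other listed genes of the HSP70 family, the cytosolic hsp-110 included, had less signal than hsp-1. Of the 7 genes in that list, 3 had a pooled region, near the 45.2% of all genes. Only hsp-1, chosen for its signal, had one among the 1000 highest (2.90% of all genes). The genes for the chaperones of the endoplasmic reticulum, hsp-3 and hsp-4, and for the mitochondrial HSP70, hsp-6, had no pooled region. Each had a region in 1 replicate only, with a signal of 9.838 for hsp-3 and 8.459 for hsp-6 in replicate 1 and 7.53 for hsp-4 in replicate 2, all below the list median. The mitochondrial chaperonin genes thus had the highest signal of the list and the mitochondrial HSP70 gene none in the pooled list. For hsf-1, the gene of heat shock factor, the pooled signal was 20.03 at rank 6219. Of 12 small heat shock protein genes 4 had a pooled region and 0 had one among the 1000 highest, beside 45.2% and 2.90% of all genes, which is no result about so small a family. The cytosolic HSP110 gene hsp-110 reached 25.67 at rank 1579, with 7.849 in replicate 1 and 14.22 in replicate 2, and shares its region with the proteasome gene rpn-3. Its region is shown because it holds a heat shock triple 37 bp downstream of the summit, nearer than at any member. A triple lay within 50 bp of the summit in 0.909% of all start-window regions and 1.08% of those among the 1000 highest. Apart from Y22D7AL.10, which shares the hsp-60 region, the other chaperone genes outside the members were not searched gene by gene. Capitals are as above.
hsp-110, chrIII:8447084-8447283, strand -: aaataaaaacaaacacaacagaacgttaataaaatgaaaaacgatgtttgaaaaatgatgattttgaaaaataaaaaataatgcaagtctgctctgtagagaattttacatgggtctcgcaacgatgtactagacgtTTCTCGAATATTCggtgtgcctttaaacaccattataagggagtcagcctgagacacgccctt

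**Figure D5:**
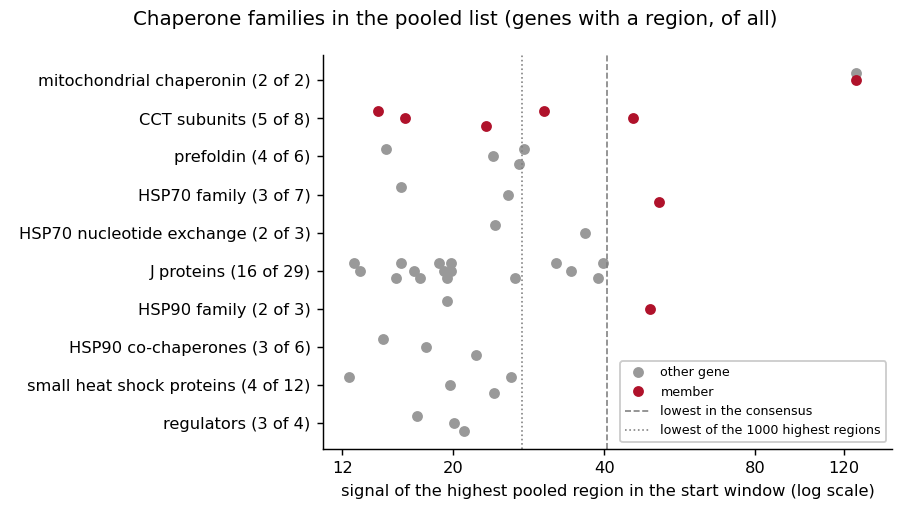
Signal of the highest pooled region in the start window (log scale) for each gene of the chaperone families that had one, with members in red. The dashed line is the lowest consensus signal, 40.48, and the dotted line the lowest of the 1000 highest regions, 27.41; the grey point beside hsp-60 is Y22D7AL.10, which shares its region.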

How the data were processed

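ChIP-seq regions from 2 biological replicates were analysed as deposited. The authors' signal per region (column 7) was made against a control library, per the deposited README texts. The deposited score (column 9) is by format a −log10 q value, but 80% of pooled values lie below 0, which that scale cannot give, and it entered no result. The aligner, peak caller, reproducibility threshold and scaling between lists are not given in the sources used here, and read depth is unknown, so no counting interval is given. Regions were ranked by signal within each ce11 list (nuclear chromosomes only) and joined to transcript starts of Ensembl release 115 (WBcel235). Python 3.11.15, numpy 2.4.6 and pandas 2.3.3 were used, and the code was tested on simulated data. Lists were matched by summits within 200 bp. The members and gene lists were chosen with earlier results of these data known. All members, their neighbours in the window, other listed chaperone genes among the 1000 highest regions, and cct-3, hsp-3, hsp-4, hsp-6, hsp-110 and hsf-1 were named by rule. T10B5.4 and rpn-3 were named after their values were seen. With 1 group, no test was made.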

Additional observations from a re-analysis of the deposited data

How the results depend on the processing

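Of 35 alternative settings for the counts, 26 stayed within 1.5 times the value given and 9 moved further. Raw counts were compared, also where a setting changed the number of members or regions counted. Of these 35, 11 were chosen after seeing the data. Giving each region only to its nearest protein-coding start within 2000 bp left 1 member, hsp-1, among the 1000 highest and 1, again hsp-1, in the consensus, cct-1 then had no pooled region and cct-6 gained one, and the highest signal left at hsp-60, hsp-90 and cct-8 was 20.09, 14.26 and 21.2. This follows from the rule, since those summits lie nearer to a neighbour. A start window of 500 bp upstream dropped hsp-60, which left 4 members among the 1000 highest and 3 in the consensus. Within 25 bp of the summit AAGTT was found at 2 members, the heat shock pair at 1 and CCAAT at 1, beside 21.1%, 7.19% and 9.56% of all start-window regions. The pair was at 7 within 100 bp (26.1%) and at 7 in the whole region (40.4%). Counting the 5000 highest regions gave 15 other chaperone genes instead of 7. Sharing with an opposite-strand gene held for 4 of the 5 members among the 1000 highest. This was counted as moved from 7 of 8, although the shares were 80% and 87.5%. Without replicate 1 or replicate 2, members among the 1000 highest numbered 4 to 7 and other chaperone genes 5 to 6. Among the 88 highest regions of 1 replicate there were 3 members either way, hsp-60, cct-1 and cct-8 without replicate 1, and hsp-60, hsp-1 and hsp-90 without replicate 2. With summits matched within 100 bp, cct-2 and cct-8 lost their match, which left 4 members with both. No paired analysis was possible because both samples belong to 1 group. Depth is unknown and limits what a low signal can show.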
